A study of Mus musculus with 15 samples.

Results

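Dennd10, Atp13a4, Medag, Kcnk6, Lrp11, Rapsn and Ly6e are 7 genes whose transcript levels differed between 4T1 cells carrying 1 or the other of 2 short hairpins against the same target, Tm4sf1. Every probe annotated to these symbols was taken, which gave 14 of the 25697 probes on the array (16593 named genes), and 13 of the 14 passed the detection filter that 11109 probes passed in all. All 7 genes had at least 1 such probe. The genes were selected on normalized probe intensity, by its difference between hairpin 1 and hairpin 5, outside the pathways named for the series; no numeric threshold was stated. That difference is therefore given for them as a description and without a test, and so is the difference of either hairpin from scramble, which uses the same arrays.

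4T1 is a mouse mammary carcinoma line, and 4TO7 is a sister line. Per the labels, 4T1 cells were stably transduced with a lentiviral pLKO vector that encoded a scramble control, shRNA #1 against TM4SF1 (hairpin 1 here) or shRNA #5 (hairpin 5). 4TO7 cells were stably transduced with the retroviral vector pBabepuro, either without insert or encoding TM4SF1. There were 5 groups of 3 arrays, 15 in all, each called a biological replicate in the labels, and every cell population carried a virus, the controls included. The sources used here do not say whether replicates were separate cultures, whether populations were clonal, or which of the listed hairpin clones is #1 or #5. The p-values thus measure only the spread between these arrays, which may be technical.

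The genes belong to unlike families. Atp13a4 encodes a P5-type ATPase, an ion-pump relative whose family includes lysosomal polyamine transporters. Kcnk6 encodes a potassium channel of the two-pore domain family, which carries background potassium currents. Dennd10 encodes a DENN domain protein, and many proteins with this domain regulate the Rab GTPases that direct vesicle traffic. Lrp11 encodes a membrane protein related to the LDL receptor, and Ly6e a small surface protein held by a lipid anchor, known in mouse as a receptor for syncytin A and in human cells as a restriction factor of coronavirus entry. Rapsn encodes rapsyn, which clusters acetylcholine receptors beneath the membrane of the neuromuscular junction. Medag is named for mesenteric estrogen-dependent adipogenesis and promotes fat cell differentiation. More than 1 hairpin is commonly used against a gene so that their effects can be compared.

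Levels were normalized log2 intensities, and values called signals were unnormalized. A probe was called detected at a detection p under 0.01. Arrays had 9436 to 10703 detected probes and mean signals of 222 to 419. The dimmest array of a group was scramble replicate 3, hairpin 1 replicate 2, hairpin 5 replicate 1, and replicate 3 of both 4TO7 groups. Member probes were read from 17 to 55 beads on an array, with a bead standard error of 1.89% to 7.74% of the signal. Of 8 mammary epithelial markers on the array, 3 or 4 were detected on all arrays of each 4T1 group and 2 on those of each 4TO7 group. Cdh1, Cldn4, Cldn7, Esrp1, Krt7 and Krt19 were undetected on every 4TO7 array, and Cldn7, Esrp1 and Krt19 on every 4T1 array too. All leukocyte and endothelial markers (5 of each on the array) were undetected in every group, as were the fibroblast genes Col1a1, Col1a2, Col3a1, Lum and Thy1. The summed signal of the 8 fibroblast markers ran from 1386 to 2447 with hairpin 1 and from 1518 to 2073 with hairpin 5. These sums are unnormalized, so they also vary with array brightness. Of the 8 markers, 3 were detected on all arrays with hairpin 1, 2 with hairpin 5 and 1 with scramble. One of them, Dcn, was lower with hairpin 1 than with hairpin 5 (-0.73, adjusted p = 0.00885, limma), and its part in the members' differences was not tested. Dcn is an example added after its value was seen, and differences of the other fibroblast markers are not given, so it does not stand for the list. Levels are of bulk RNA, in which fewer cells of a type and less RNA per cell cannot be told apart.

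Tm4sf1 itself, a membrane protein gene related to the tetraspanins, was lower with both hairpins. Its normalized level (log2, probe ILMN_2462650) was 8.17, 8.01 and 8.03 on the scramble arrays, 6.77, 6.96 and 7.09 with hairpin 1, and 7.07, 6.72 and 5.96 with hairpin 5. Every knockdown array lay below every scramble array, and the hairpin groups overlapped each other. Tm4sf1 differed between the hairpins by 0.36 (hairpin 1 minus hairpin 5, SE 0.195, 95% interval -0.04 to 0.76, adjusted p = 0.469, limma). The arrays labelled TM4SF1 averaged 8.41 and the empty-vector arrays 8.27 at this probe, which differ by 0.14 on the log2 scale (SE 0.195, adjusted p = 0.948, limma). The label was not borne out at this probe, and no source used here says if the probe lies in the introduced sequence.

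Over all probes, 161 of 11109 were called between hairpin 1 and hairpin 5 at an adjusted p under 0.05 (limma), which is 1.45%. Of these, 107 probes were higher with hairpin 1 (0.963%) and 54 lower (0.486%), and with 1 array left out at a time the count ran from 77 to 186. Among the member probes, 9 of 13 were higher with hairpin 1 and 4 lower, by 0.20 to 1.10 in size, with a median of 0.49 against -0.004 over all probes. The 3 arrays of 1 hairpin did not overlap those of the other at 11 of 13 member probes, where 16.3% of all probes had such groups. The choice of genes used this contrast, so nothing is read from that count, the median or the split of directions. By size, Medag, Atp13a4, Dennd10 and Rapsn held ranks 1, 2, 3 and 5 among differences in favour of hairpin 1. Ddit3, a stress-induced transcription factor gene, held rank 4 (0.92, SE 0.138, adjusted p = 2.49e-04, limma). Kcnk6 and Lrp11 held ranks 5 and 6 in the other direction, and Ly6e, undetected with hairpin 1, is left unranked. Kcnk6 and Lrp11 stood behind the smooth muscle actin genes Acta2 (-2.41, SE 0.165, adjusted p = 4.35e-10, limma) and Actg2, which was undetected with hairpin 1. The other named genes among the 10 leading probes each way were Ccn5 (0.86), Kpna1 (0.85), Aldh1l2 (0.85), Drg1 (-0.76, not called, adjusted p = 0.201) and Vangl2 (-0.74).

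**Figure D1:**
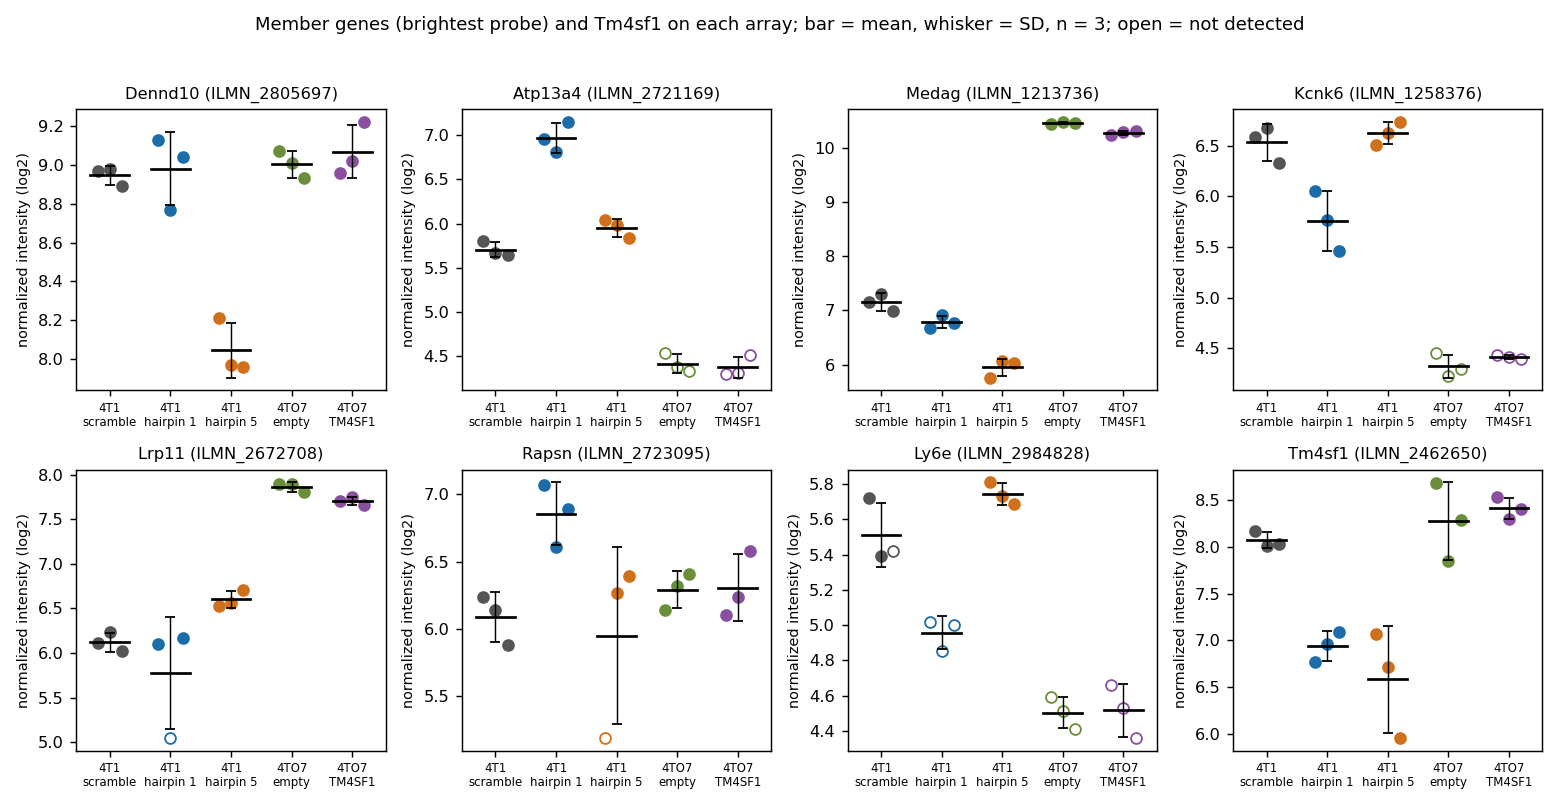
Normalized intensity (log2, vertical axis) of the brightest probe of each of the 7 genes and of Tm4sf1 on every array, by group. Points are arrays, open where the probe was not detected; bars are means and whiskers SDs (n = 3). Dennd10 is low with hairpin 5 alone, Atp13a4 high with hairpin 1, and Medag and Lrp11 are highest in 4TO7, where Atp13a4, Kcnk6 and Ly6e are undetected on all arrays.

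Atp13a4, the transport ATPase gene, was higher with hairpin 1. Its probe ILMN_2721169 read 5.80, 5.67 and 5.64 with scramble, 6.96, 6.81 and 7.15 with hairpin 1, and 6.04, 5.98 and 5.84 with hairpin 5. The 3 groups did not overlap, with hairpin 1 far above the others and hairpin 5 just above scramble. The difference from scramble was 1.27 with hairpin 1 and 0.25 with hairpin 5 (SE 0.172 for both), and between the hairpins it was 1.02. In 4TO7 the probe was undetected on all 6 arrays, at 4.53, 4.38 and 4.33 with the empty vector and 4.30, 4.31 and 4.51 on the arrays labelled TM4SF1. Over the 4T1 groups the order was thus hairpin 1, hairpin 5, scramble, with 4TO7 at background.

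Of the promoters of these genes, those of Atp13a4, Dennd10 and Medag are shown because their probes were called in the comparison of both hairpins with scramble. They are RefSeq windows of GRCm38.p6 from 250 bases before to 50 after an annotated start. Capitals mark matches on either strand to the GC box GGGCGG and to CCAAT.
Atp13a4, upstream of its 2 starts, chr16:29544815-29545114, minus strand: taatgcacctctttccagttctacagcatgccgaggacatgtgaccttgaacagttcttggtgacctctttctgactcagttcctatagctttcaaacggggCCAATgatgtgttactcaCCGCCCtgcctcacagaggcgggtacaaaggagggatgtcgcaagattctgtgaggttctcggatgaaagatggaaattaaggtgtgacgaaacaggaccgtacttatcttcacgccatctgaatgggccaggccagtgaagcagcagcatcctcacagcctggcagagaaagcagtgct
Dennd10, chr19:60811305-60811604, plus strand: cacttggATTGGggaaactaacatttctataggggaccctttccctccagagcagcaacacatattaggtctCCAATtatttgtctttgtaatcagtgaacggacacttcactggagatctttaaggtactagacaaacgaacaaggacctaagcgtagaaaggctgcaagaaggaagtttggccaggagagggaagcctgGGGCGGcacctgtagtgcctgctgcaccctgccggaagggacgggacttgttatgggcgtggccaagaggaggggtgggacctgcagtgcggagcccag
Medag, upstream of its 2 starts, chr5:149411499-149411798, plus strand: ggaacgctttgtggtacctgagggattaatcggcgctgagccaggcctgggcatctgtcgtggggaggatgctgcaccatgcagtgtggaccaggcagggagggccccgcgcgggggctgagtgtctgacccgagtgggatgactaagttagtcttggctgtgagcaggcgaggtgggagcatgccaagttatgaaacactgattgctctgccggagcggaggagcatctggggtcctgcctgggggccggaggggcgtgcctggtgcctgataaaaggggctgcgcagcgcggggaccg
The table held 6 windows for 4 of the genes, these and Lrp11. The GC box was found in 3 of the 6 (Atp13a4, Dennd10 and Lrp11) and in 35.7% of 32851 mouse promoter windows of the same length. CCAAT was found in 2 of the 6 (Atp13a4 and Dennd10) and in 37.4% of all. TATAAA (13.6% of all), the cAMP response element TGACGTCA (1.79%) and the letters TGATGCAAT (0.192%) were in none of the 6 on either strand. The GC content was 68.7% for Lrp11, 64.3% for the Medag window shown, 53.0% for Dennd10 and 50.7% for the Atp13a4 window shown, with a median of 52.7% over all windows. A match is only a match of letters.

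Kcnk6, the potassium channel gene, was lower with hairpin 1 at both probes that could be measured. ILMN_1258376 read 6.59, 6.68 and 6.33 with scramble, 6.05, 5.77 and 5.46 with hairpin 1, and 6.51, 6.63 and 6.73 with hairpin 5. Hairpin 1 lay below both other groups, and hairpin 5 overlapped scramble. Hairpin 1 differed from scramble by -0.77 and hairpin 5 by 0.09 (SE 0.182), which left -0.86 between the hairpins. At ILMN_3049650, nearer to background, the values were 5.66, 5.64 and 5.80 with scramble, 5.27, 4.94 and 5.16 with hairpin 1, of which 1 was detected, and 5.68, 5.54 and 5.34 with hairpin 5. The difference between the hairpins was -0.39 (SE 0.190). These probes correlated at r = 0.71 over the 9 4T1 arrays. Both were undetected on all 4TO7 arrays, and the remaining probe, ILMN_3125634, was undetected on all 15 arrays and was not tested.

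Dennd10, the vesicle traffic gene, was lower with hairpin 5 and not with hairpin 1, at each of 3 probes. The brightest, ILMN_2805697, read 8.97, 8.98 and 8.89 with scramble, 9.13, 8.77 and 9.04 with hairpin 1, and 8.21, 7.97 and 7.96 with hairpin 5. Every hairpin 5 array lay below every other array of the series, whereas hairpin 1 overlapped scramble. Differences from scramble were 0.03 with hairpin 1 and -0.90 with hairpin 5 (SE 0.104), a gap of 0.93 between the hairpins. ILMN_2637624 gave 7.67, 7.55 and 7.78 with scramble, 7.83, 7.67 and 7.78 with hairpin 1, and 6.79, 6.88 and 6.91 with hairpin 5. ILMN_2620131, the dimmest of the 3, gave 6.59, 6.31 and 6.51 with scramble, 6.38, 6.65 and 6.52 with hairpin 1, and 6.14, 5.92 and 6.02 with hairpin 5. The gap between the hairpins was 0.90 (SE 0.120) and 0.49 (SE 0.190) at these probes. The probes varied together over the 9 4T1 arrays (r = 0.952, 0.845 and 0.879 between pairs). In 4TO7 the brightest probe read 9.07, 9.01 and 8.93 with the empty vector and 8.96, 9.02 and 9.22 on the arrays labelled TM4SF1. At this probe those groups, scramble and hairpin 1 overlapped, so hairpin 5 alone stood apart in the order of levels. Hairpin 5 also lay below both 4TO7 groups at ILMN_2637624. At ILMN_2620131 it overlapped them, with 5.81 on empty-vector replicate 2 and 5.75 on labelled TM4SF1 replicate 3.

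Lrp11, the LDL receptor relative, was highest in 4TO7 and, within 4T1, higher with hairpin 5. Its probe ILMN_2672708 read 6.11, 6.23 and 6.02 with scramble, 6.10, 5.05 and 6.17 with hairpin 1, and 6.53, 6.56 and 6.71 with hairpin 5. Hairpin 5 lay above both other groups, and hairpin 1 overlapped scramble except for its replicate 2. On that array, the dimmest of the series, the probe was not detected, with a signal of 96 from 30 beads and a bead standard error of 3.72%. The difference between the hairpins was -0.83 (SE 0.191) and -0.47 without that array. In 4TO7 the values were 7.89, 7.89 and 7.80 with the empty vector and 7.70, 7.75 and 7.66 on the arrays labelled TM4SF1.

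Ly6e, the surface protein gene, sat close to the detection limit. Probe ILMN_2984828 read 5.72, 5.39 and 5.42 with scramble, detected on 2 arrays, 5.02, 4.85 and 5.00 with hairpin 1, detected on none, and 5.81, 5.73 and 5.69 with hairpin 5, detected on all 3. Hairpin 1 lay below both other groups and hairpin 5 overlapped scramble. With hairpin 1 the level is only a bound, and Ly6e was at least 1.45-fold lower there than with hairpin 5 (measured difference -0.79, SE 0.185). For this bound, here and for the lines, an undetected array was given the lowest level of any detected probe on it, or the probe's own level where that was higher. It was undetected on all 4TO7 arrays, at 4.36 to 4.66.

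Rapsn, the receptor-clustering gene, was highest with hairpin 1 at its brightest probe, and its probes disagreed. ILMN_2723095 read 6.24, 6.14 and 5.88 with scramble, 7.07, 6.61 and 6.89 with hairpin 1, and 5.19, 6.27 and 6.39 with hairpin 5. Hairpin 1 lay above both other groups. The low hairpin 5 value is replicate 1, the dimmest array of that group, where the probe was not detected. The gap between the hairpins was 0.90 (SE 0.224) and 0.52 without that array. ILMN_1235236 gave 0.32 (SE 0.213) and ILMN_2967654 gave 0.20 (SE 0.251), with overlapping groups at both, and the latter turned to -0.09 without hairpin 1 replicate 3 and -0.01 without hairpin 5 replicate 1. ILMN_1235236 was undetected on all scramble and all 4TO7 arrays. The 3 probes correlated with each other at only r = 0.449, 0.593 and 0.101 over the 9 4T1 arrays. In 4TO7 the brightest probe read 6.14, 6.32 and 6.41 with the empty vector and 6.10, 6.24 and 6.58 on the arrays labelled TM4SF1, overlapping each other and scramble.

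Medag, the adipogenesis gene, was lower than scramble with both hairpins, more so with hairpin 5. ILMN_1213736 read 7.16, 7.31 and 6.99 with scramble, 6.68, 6.91 and 6.76 with hairpin 1, and 5.76, 6.06 and 6.02 with hairpin 5. The 3 groups did not overlap. Differences from scramble were -0.37 with hairpin 1 and -1.21 with hairpin 5 (SE 0.110), and the gap between the hairpins was 0.84. ILMN_2642517 gave 6.75, 6.77 and 6.53 with scramble, 6.45, 6.38 and 6.28 with hairpin 1, and 5.19, 5.19 and 5.42 with hairpin 5, where it was detected on 1 of 3 arrays. Its gap between the hairpins was 1.10 (SE 0.123), and the probes correlated at r = 0.973 over the 9 4T1 arrays. In 4TO7 the first probe was far higher, at 10.44, 10.47 and 10.45 with the empty vector and 10.23, 10.29 and 10.30 on the arrays labelled TM4SF1.

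The hairpin that lay farther from scramble was not the same for all 7 genes. A choice by the hairpin gap favours genes with unequal distances, so nothing is read from the inequality. At the brightest probe, hairpin 1 lay farther from scramble for 4 genes (Atp13a4, Kcnk6, Rapsn and Ly6e) and hairpin 5 for 3 (Dennd10, Medag and Lrp11). For Lrp11 the distances were of similar size, -0.35 with hairpin 1 and 0.48 with hairpin 5 (SE 0.191 for both). The hairpins lay on the same side of scramble for Atp13a4 and Medag. Over all probes, 522 (4.7%) were called with hairpin 1 against scramble and 292 (2.63%) with hairpin 5. Both comparisons share the scramble arrays. Without background correction the gap between the hairpins kept its sign at all 13 probes but was smaller, at 0.44 for Medag ILMN_2642517, 0.52 for Atp13a4, 0.43 for Rapsn ILMN_2723095, -0.40 for Kcnk6 ILMN_1258376, -0.37 for Lrp11 and -0.26 for Ly6e. For the bright Dennd10 probe it was 0.76.

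**Figure D2:**
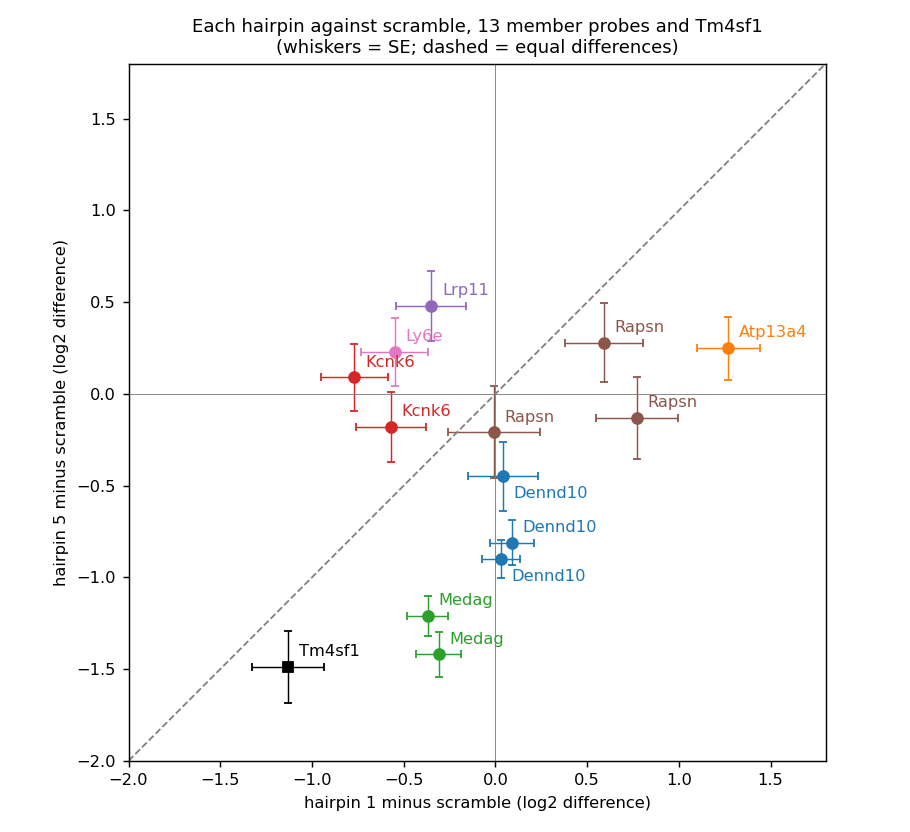
Log2 difference from scramble with hairpin 1 (horizontal axis) and with hairpin 5 (vertical axis) for the 13 member probes and Tm4sf1. Whiskers are SEs and the dashed line marks equal differences. Dennd10 and Medag lie below the line, Lrp11, Ly6e and Kcnk6 above it, and Atp13a4 far to the right (1.27 and 0.25).

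**Figure D3:**
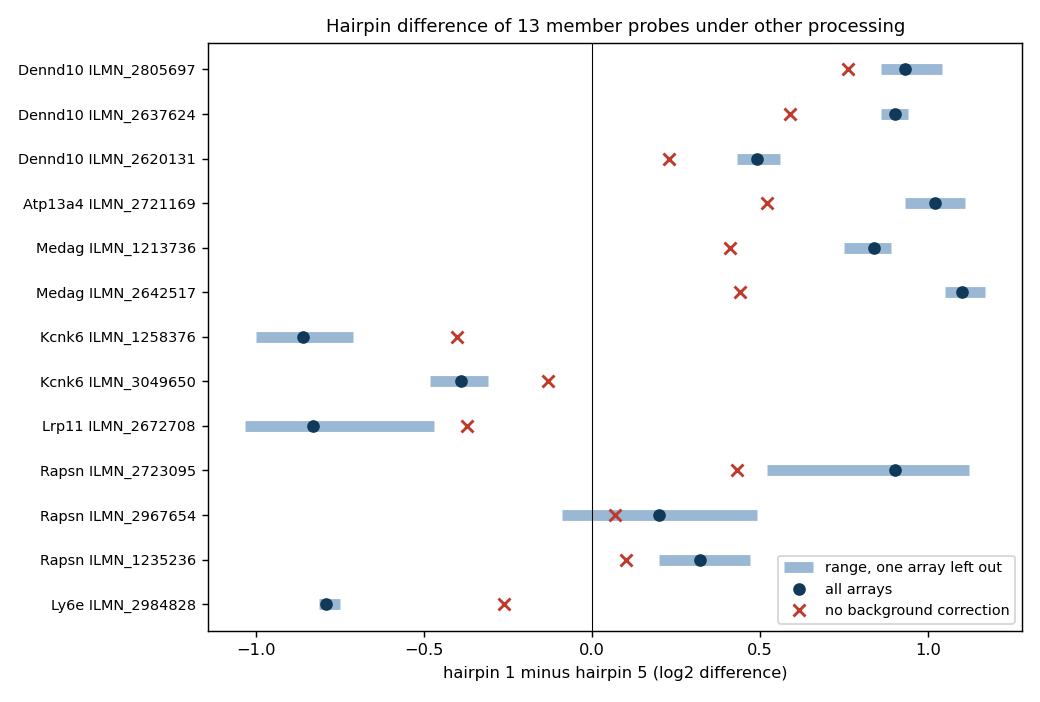
Hairpin 1 minus hairpin 5 (log2, horizontal axis) for each of the 13 member probes with all arrays (dots), the range with 1 array left out at a time (bars) and without background correction (crosses). The bars are long for Lrp11 (-1.03 to -0.47) and Rapsn, where ILMN_2967654 crosses 0, and short for Ly6e (-0.81 to -0.75).

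Whether the mean of both hairpins lay away from scramble is a further question. In this balanced design the sampling error of that mean is independent of the error of the hairpin difference. Both still use the same hairpin arrays, so the comparison is not free of the choice of genes. Medag fell and Atp13a4 rose in this comparison. Medag changed by -0.79 at ILMN_1213736 (SE 0.0949, adjusted p = 5.98e-06, limma) and by -0.86 at ILMN_2642517 (adjusted p = 7.29e-06, limma), lower on 6 of 6 hairpin arrays at both. Atp13a4 changed by 0.76 (SE 0.149, adjusted p = 0.00268, limma), higher on 6 of 6. This mean rests mostly on hairpin 1, at 1.27 from scramble against 0.25 with hairpin 5 (SE 0.172 for both). Dennd10 fell by 0.43 at ILMN_2805697 (SE 0.0897, adjusted p = 0.00394, limma), with the hairpin 1 arrays overlapping scramble, so that the mean rests on hairpin 5. Its ILMN_2637624 passed at -0.36 (adjusted p = 0.0475, limma), a call that 19 of 28 other settings ended (adjusted p from 0.0288 to 1), and ILMN_2620131 did not pass (-0.20, adjusted p = 0.592). In all, 5 of 13 member probes, from 3 genes, were called (1 higher and 4 lower, median -0.201), where 4.19% of all probes were (465, of which 225 rose and 240 fell; median 0.000723). A displacement with 1 hairpin moves this mean as well. For genes chosen by a hairpin gap, nothing is therefore read from the count. The p-values do not tell an effect of both hairpins from an effect of 1.

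The other 8 probes did not pass in that comparison. Kcnk6 ILMN_1258376 gave -0.34 (95% interval -0.66 to -0.02, adjusted p = 0.26, limma) and Lrp11 0.07 (-0.27 to 0.41, adjusted p = 0.895). Rapsn ILMN_2723095 gave 0.32 (-0.08 to 0.71, adjusted p = 0.438) and Ly6e -0.16 (-0.49 to 0.17, adjusted p = 0.68). Under median scaling in place of quantile normalization the calls of Dennd10 ILMN_2805697 (adjusted p = 1), Atp13a4 (0.461) and Medag ILMN_1213736 (0.0893) were lost, and 25 of all probes were then called. Without background correction Medag gave -0.43 and -0.39 and Atp13a4 0.36, all still called.

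None of the 13 member probes was called between the arrays labelled TM4SF1 and the empty vector in 4TO7, where 2 of 11109 probes were called in all (0.018%) and 754 had an unadjusted p under 0.05 (limma), 1 member probe among them. On the authors' deposited normalized table none was called either. For 6 of the probes (Atp13a4, both Kcnk6 probes, ILMN_1235236 and ILMN_2967654 of Rapsn, and Ly6e) both 4TO7 groups were undetected. Of the rest, Medag lay lower on the labelled TM4SF1 arrays by 0.18 at ILMN_1213736 (95% interval -0.40 to 0.05, adjusted p = 0.801, limma). Its ILMN_2642517 gave -0.26 (-0.51 to 0.00, unadjusted p = 0.0483, adjusted p = 0.725). Lrp11 gave -0.16 (-0.55 to 0.24, adjusted p = 0.94, limma) and the bright Dennd10 probe 0.06 (-0.15 to 0.27, adjusted p = 0.964, limma). The intervals leave room for shifts of these sizes.

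Between the lines, 7 of 13 member probes were called (3 higher and 4 lower in 4TO7), beside 45% of all probes (4998). The shares are near each other, so nothing is read from the count. Medag was 9.84-fold higher in empty-vector 4TO7 than in scramble 4T1 at ILMN_1213736 (log2 difference 3.30, SE 0.110, adjusted p = 2.49e-19, limma) and 10.8-fold higher at ILMN_2642517 (3.43, adjusted p = 1.67e-18). Lrp11 was 3.34-fold higher (1.74, SE 0.191, adjusted p = 2.10e-08). Undetected in 4TO7, Kcnk6 was at least 2.38-fold lower at ILMN_1258376 and at least 1.34-fold lower at ILMN_3049650. Atp13a4 was at least 1.34-fold lower and Ly6e at least 1.17-fold lower. These bounds were not tested. The probes of these 3 genes passed the detection filter through 4T1 arrays alone, so nothing is read from their calls. Dennd10 did not pass at any probe (0.06, 95% interval -0.16 to 0.27, adjusted p = 0.687 at the brightest), nor did Rapsn (0.20, -0.26 to 0.66, adjusted p = 0.495 at the brightest). In this comparison the line and the vector cannot be told apart. Without background correction the measured differences shrank, to 2.71 for Medag ILMN_1213736, 1.04 for Lrp11, -0.90 for Kcnk6 ILMN_1258376, -0.45 for Atp13a4 and -0.33 for Ly6e, all still called.

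**Figure D4:**
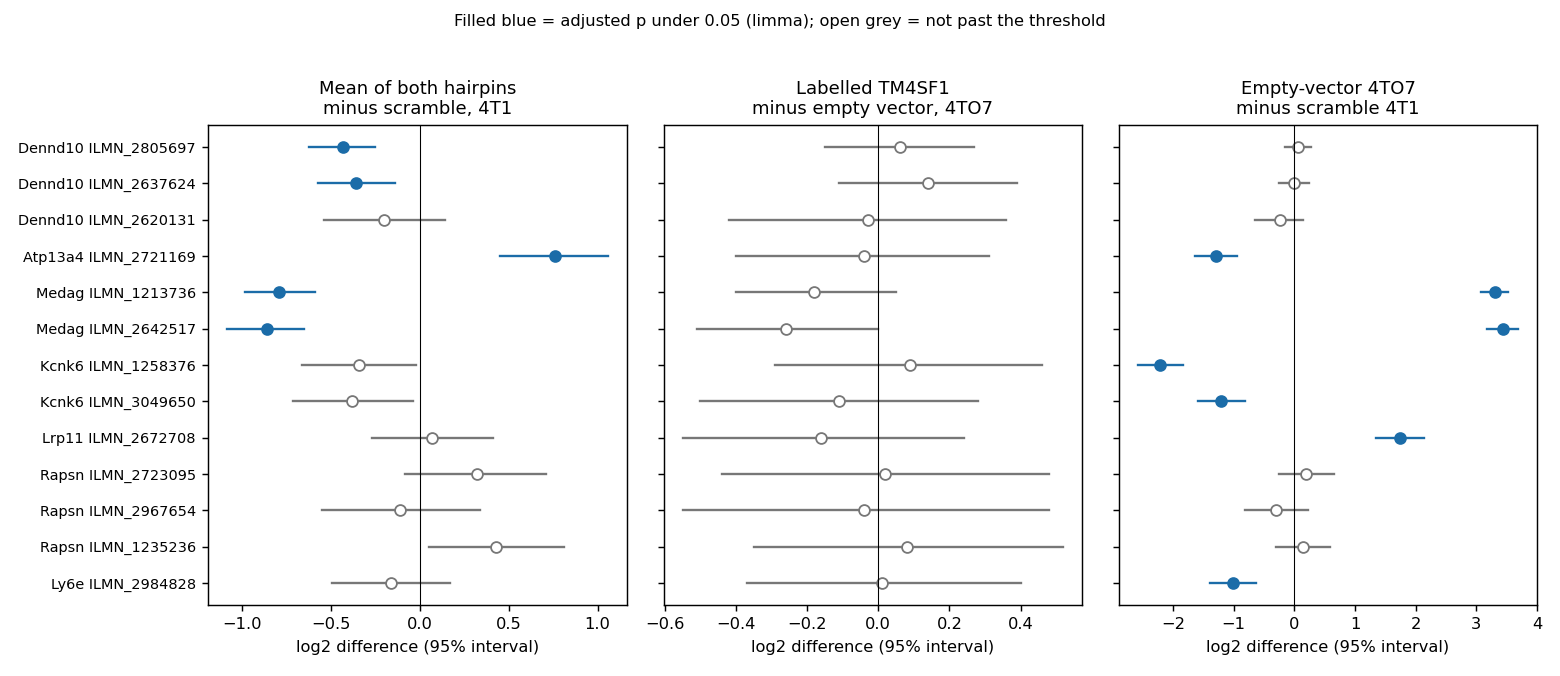
Log2 differences of the 13 member probes with 95% intervals in the 3 tested comparisons. They are the mean of both hairpins against scramble, labelled TM4SF1 against empty vector, and empty-vector 4TO7 against scramble 4T1. The first uses the same hairpin arrays as the gap that chose the genes. In the last, Atp13a4, Kcnk6 and Ly6e were undetected in 4TO7. Filled blue points passed an adjusted p of 0.05 (limma); 5, 0 and 7 probes did, and each panel has its own horizontal scale.

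Genes listed together with the 7 members were examined, with 40 other genes measured in all. The lists were protein families, except that Medag stood with fat cell differentiation genes and Rapsn with neuromuscular junction genes. Each was read at its brightest probe, whereas the shares set beside the counts are over all probes. None was called between hairpin 1 and hairpin 5 (limma, 4 had an unadjusted p under 0.05), beside 1.45% of all probes. With labelled TM4SF1 none was called either (limma; 3 unadjusted). With the mean of both hairpins 3 of 40 (7.5%) rose and none fell, beside 4.19% of all probes called. They were Flcn, the folliculin gene, which encodes a DENN-fold protein (0.35, SE 0.0728, adjusted p = 0.0039, limma), and, from the fat cell list, Klf5 and Pnpla2. The transcription factor gene Klf5 changed by 0.40 (adjusted p = 0.00865, limma) and the triglyceride lipase gene Pnpla2 by 0.29 (adjusted p = 0.0296, limma). Among the P5-type ATPases, Atp13a1 differed between the hairpins by -0.24 (adjusted p = 0.213) and Atp13a2 by -0.09 (adjusted p = 0.899). The potassium channels Kcnk2 and Kcnk5 differed by 0.07 and 0.04 there, and Lrp12 by 0.18. Between the lines 25 of 40 (62.5%) were called, beside 45% of all probes, 13 higher and 12 lower in 4TO7. Lrp12 (1.79) and, from the neuromuscular junction list, the agrin gene Agrn (1.29) were higher there. So were Lypd3 (2.29) and, from the fat cell list, Klf4 (2.16). Kcnk5 (-0.82), Kcnk2 (-0.44) and Ly6c1 (-1.34) were lower.

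Genes whose levels followed a member most closely over the 9 4T1 arrays were listed by Pearson correlation, as a description of arrays that share their group means and normalization. Nearest to Dennd10 were Ginm1 (r = 0.964), the importin gene Kpna1 (r = 0.964) and the cell cycle kinase gene Cdk2 (r = 0.954). Kpna1 averaged 7.37 with scramble, 7.40 with hairpin 1 and 6.55 with hairpin 5. Nearest to Atp13a4 were Slc7a11, which encodes a cystine transporter (r = 0.965), the glutathione-degrading enzyme gene Chac1 (r = 0.959) and the asparagine synthetase gene Asns (r = 0.955). Chac1 averaged 9.58, 10.74 and 9.98 in the same order of groups, and Slc7a11 averaged 8.44, 9.27 and 8.59. Nearest to Medag were Rnf5 (r = 0.974), Hsd11b1 (r = 0.95), whose enzyme reactivates glucocorticoids, and Tm9sf4 (r = 0.932). Kcnk6 was nearest to Wrap73, Urah and Lancl1 (r = 0.951, 0.939 and 0.927) and Lrp11 to Brwd1, Nkapd1 and Rsad2 (r = 0.947, 0.939 and 0.935). Rapsn was nearest to Pcyt1b, Gpt2 and Usp45 (r = 0.928, 0.913 and 0.892). Ly6e was nearest to the apoptosis inhibitor gene Bcl2 (r = 0.95), then Gde1 and Pinx1 (r = 0.91 and 0.902), and Bcl2 averaged 5.86, 5.36 and 6.04.

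The genes that neighbour the members on their chromosomes were measured as well, up to 5 on either side in the order of the RefSeq annotation. Of 68 such genes, each read at its brightest probe, 2 were called between hairpin 1 and hairpin 5 (limma), beside 1.45% of all probes. Ginm1, near Lrp11, was higher with hairpin 1 by 0.61 (SE 0.0955, adjusted p = 3.68e-04), against the direction of Lrp11. Celf1, near Rapsn, was higher by 0.38 (SE 0.0968, adjusted p = 0.0415). The 8 measured neighbours of Dennd10 lay between -0.15 and 0.15, and none of the 10 of Medag, Atp13a4, Kcnk6 or Ly6e was called.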

How the data were processed

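Members, gene lists and comparisons were chosen with earlier results of these data known. Per the file headers, the deposited matrix held unnormalized intensity averaged over the beads of each probe, with a bead standard error, a count of beads, and a detection p-value. The submitters' processing notes name GenomeStudio. A second table held the authors' normalized intensity values and was used as an alternative. Columns were matched to samples by name, with 0 left over.

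Background was corrected with limma 3.58.1 (R 4.3.3) by normexp from detection p-values with an offset of 16, followed by quantile normalization and log2. Probes detected (p under 0.01) on 3 or more arrays were kept. One mean per group was fitted to the 15 arrays together with a mean-variance trend (residual degrees of freedom 10, prior 16.3; median SE of a hairpin difference 0.14), and adjusted p-values are Benjamini-Hochberg over all 11109 probes, two-sided. The number of arrays limits the precision; an exact permutation of 3 against 3 cannot go below p = 0.1. The procedure was tested on simulated data. Symbols came from the platform annotation, matched to RefSeq genes of GRCm38.p6 (23978 probes named, 1719 not), so members' probes are known by annotation only.

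Genes named are the 7 members with every probe, Tm4sf1, and the 3 genes most like each member. Likeness was the highest r among named genes whose 4T1 group means span at least 0.5. Also given are named genes among the 10 leading probes each way between the hairpins. Called genes of the family and function lists are given too, some as examples. Neighbouring genes, called ones only, and stated examples were added after their values were seen. Same-numbered replicates deviated from their group means with r of -0.143 to 0.09 over 30 pairs, so the numbers were not treated as pairs. Alternatives covered background, normalization, filters, the probes and arrays fitted, the variance trend, array weights, array brightness, the replicate number and each array left out. Hairpin and probe sequences were not used here.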

Additional observations from a re-analysis of the deposited data

How the results depend on the processing

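Of 39 tested values of member probes under up to 29 alternatives each (1095 values), 1073 stayed on the same side of the threshold and 22 lost a call, 19 of them Dennd10 ILMN_2637624 in the mean of both hairpins. No called value changed sign, but 31 uncalled ones did, at 12 of the 39 results, 9 of these for labelled TM4SF1 and all with a reported size of at most 0.14. Dennd10 ILMN_2620131 reached 0.32 for labelled TM4SF1, and in the mean of both hairpins Lrp11 reached -0.03 and Rapsn ILMN_2967654 0.31, so such values have no settled direction. The untested gap between the hairpins kept its sign in all but 2 of 365 values, Rapsn ILMN_2967654 at -0.09 without hairpin 1 replicate 3 and -0.01 without hairpin 5 replicate 1 (range with 1 array left out -0.09 to 0.49). Counts of called probes moved more. Median scaling gave 3 probes between the hairpins, 25 for the mean of both hairpins, 0 for labelled TM4SF1 and 1919 between the lines; the cause was not tested. Between the hairpins 93 were called with only the compared arrays, 85 without a variance trend, 43 when the dimmest array of every group was dropped, and 77 to 186 with 1 array left out. Hairpin 1 replicates 1, 2 and 3 (103, 77 and 88) and hairpin 5 replicates 1 and 2 (86 and 96) moved that count by over 1.5 times. For the mean of both hairpins the count was 778 with array weights, 156 without the dimmest arrays, and 224 to 542 with 1 array left out, the scramble replicates 1, 2 and 3 giving 284, 300 and 224. For labelled TM4SF1 it was 0 with only the compared arrays and without a trend, and 1 to 3 with 1 array left out (1 without vector replicate 1, or replicate 1 or 2 of labelled TM4SF1). Between the lines it was 4441 to 5126.

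With the replicate number as a block, 146 probes were called between the hairpins, 416 for the mean of both hairpins, 2 for labelled TM4SF1 and 4941 between the lines. Of the member calls the block ended 1, Dennd10 ILMN_2637624 (-0.36, adjusted p = 0.0649). Numbers are shared by label only, and 3 of 15 arrays correlated best with an array of their own number. A slide block was not run, since the files give no slides. Low signal limits these probes, and the size of every hairpin gap depends on the background estimate, least in proportion for the brightest Dennd10 probe (0.93 and 0.76).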
